A study of Mus musculus with 6 samples.

Results

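Obp2a, Cnbd2, Fam25c and Cep85 are 4 genes that had higher RNA levels in livers of Nogo-deficient mice than in those of their wild-type littermates. They are 4 of the 54232 rows of the count table, and all 4 were among the 13304 genes that passed the filter on low counts. They were selected on this same comparison, as large rises of little-studied genes, so their differences between the genotypes are given here as a description, with no test. Livers of 3 Nogo-/- mice and 3 wild-type littermates were sequenced, all from animals 8 weeks old that had been fed normal chow. The study's title asks how loss of Nogo acts on insulin signalling. The labels do not say which piece of the gene was removed or whether the loss was limited to a cell type, and they do not give the sex of the mice. The libraries are called knockout 1, 2 and 4 and wild type 2, 4 and 11, after the numbers in their titles.

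The 4 genes belong to unrelated families. Obp2a, also known as Lcn13, encodes a lipocalin, a small secreted protein with a pocket that carries fatty or fragrant molecules, and in mice the protein has been described as a product of liver that acts on glucose and lipid metabolism. Cnbd2, also known as Cris, is named for a domain that binds cyclic nucleotides such as cAMP and is known in mice from developing sperm, where it is needed for male fertility. Cep85 encodes a protein of the centrosome, the body that organises microtubules, and in human cells it binds the kinase NEK2 and the centriole duplication factor STIL. Fam25c belongs to a small family of short proteins whose function is not established. Nogo itself is encoded by Rtn4, a reticulon that curves membranes of the endoplasmic reticulum.

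The knockout libraries held 17654412 to 18118811 counts and the wild-type libraries 17568223 to 20902369 counts. Rtn4 had 70, 153 and 78 counts in knockout 1, 2 and 4, against 852, 991 and 1205 in wild type 2, 4 and 11, which is −3.08 ± 0.26 (SE) on the log2 scale (edgeR quasi-likelihood test, adjusted p = 0.00101). Each library thus carried the Rtn4 level of its label. Of all tested genes 17% were called, which here means an edgeR p under 0.05 after Benjamini-Hochberg adjustment over the 13304 genes. That is 2268 genes, with 8.76% of the tested ones higher and 8.29% lower in knockout. The count of calls was 4046 without knockout 4, 1691 without wild type 11, and between 630 and 979 when knockout 1, knockout 2, wild type 2 or wild type 4 was left out. In CPM, the counts of a gene after all libraries are brought to one size, the 8 hepatocyte markers summed to 75667 to 108086 CPM in knockout and 84808 to 101936 CPM in wild type, and 1 of them fell. The knockout libraries stood apart in 2 further respects. Mitochondrially encoded genes took 28.6%, 19.7% and 11.8% of the counts in knockout 1, 2 and 4, against 6.17% to 6.90% in wild type. Markers of white blood cells also had higher sums in knockout. Those of B cells summed to 9.09 to 16.5 CPM in knockout and 3.18 to 3.76 CPM in wild type, with 4 of 5 tested genes called. Those of T and NK cells summed to 6.38 to 13.9 CPM in knockout and 2.61 to 3.39 CPM in wild type, with 2 of 4 called. Those of neutrophils summed to 4.09 to 10.4 CPM in knockout and 1.42 to 1.87 CPM in wild type, with 2 of 2 called. Of the other cell types, 3 of 6 sinusoidal endothelial, 1 of 5 cholangiocyte and 1 of 4 erythroid markers fell, and 0 of 7 Kupffer cell, 0 of 6 stellate cell and 0 of 5 pancreatic acinar markers were called. The part of these shifts in the results below was not tested. In bulk tissue, more cells of a type and more RNA per cell cannot be told apart.

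All 4 genes were higher in each knockout library than in every wild-type library. Over all tested genes, 19.7% showed this pattern, and nothing is read from the comparison because the genes were picked for it. Levels are given as CPM after TMM scaling, a correction of the library size for a few very abundant genes, and ± marks the SD over 3 libraries. Fold changes are knockout over wild type. The plot of the 4 genes by library shows the values with their counting error, which is small for Fam25c and Cep85 and wide for Obp2a and Cnbd2 in wild type.

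**Figure D1:**
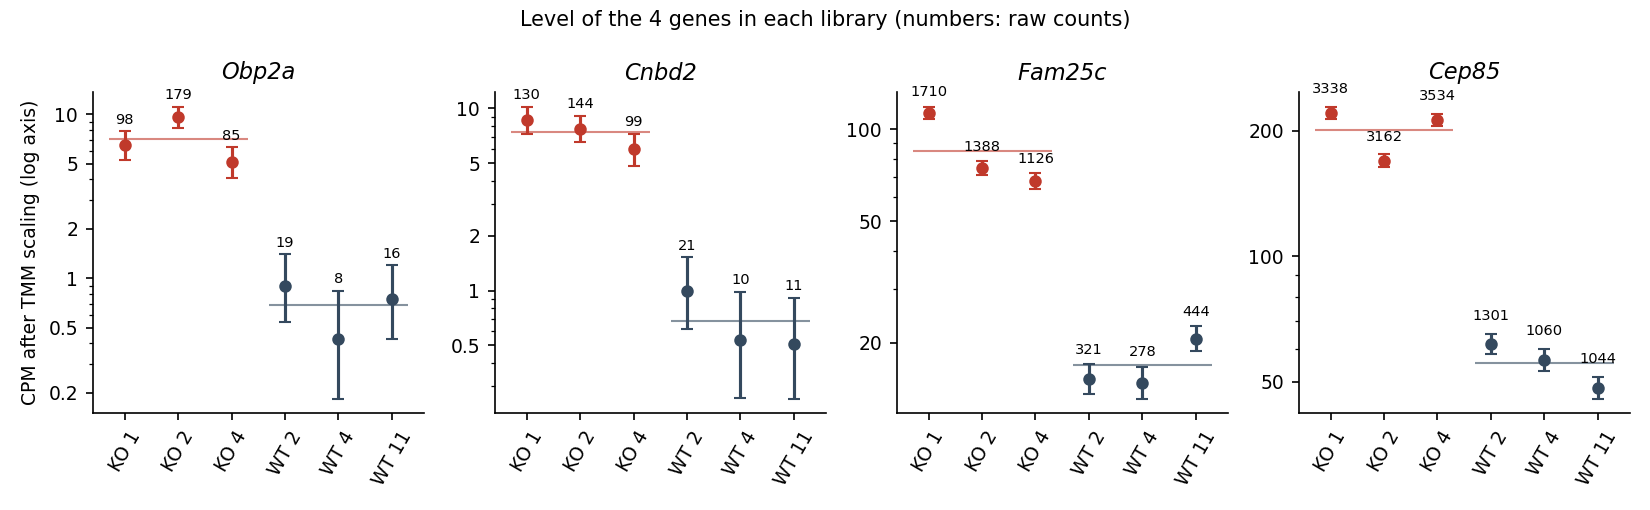
Levels of Obp2a, Cnbd2, Fam25c and Cep85 in 3 knockout (red) and 3 wild-type (blue) livers, as CPM after TMM scaling on a log axis. Points are single libraries with their raw counts above, bars are exact 95% Poisson intervals of those counts, and horizontal lines are group means. In each panel the lowest knockout library lies above the highest wild-type library.

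The promoters of 3 of the 4 genes are shown here for the motifs around each start of transcription. They come from RefSeq, on build GRCm38.p6, and are read 5′ to 3′ on the strand of the gene, ending at most 30 bases into the first exon of the GENCODE M21 annotation. Capitals mark motif matches. The TATA box was searched as TATAAA. The motif CCAAT appears as ATTGG where it lies on the opposite strand. The GC box was searched as GGGCGG, which is printed as CCGCCC when it lies on the opposite strand. A recognition element of nuclear receptors was searched as AGGTCA, which reads TGACCT on the opposite strand. GTAAACA, the forkhead motif, and TTCNNNGAA, the STAT motif, were searched too and had no match in these windows. Both strands were searched, and no matches overlapped. The Obp2a window is chr2:25699824-25700072 on the plus strand, the Fam25c window chr14:34355404-34355643 on the minus strand and the Cep85 window chr4:134187086-134187335 on the minus strand.
Obp2a: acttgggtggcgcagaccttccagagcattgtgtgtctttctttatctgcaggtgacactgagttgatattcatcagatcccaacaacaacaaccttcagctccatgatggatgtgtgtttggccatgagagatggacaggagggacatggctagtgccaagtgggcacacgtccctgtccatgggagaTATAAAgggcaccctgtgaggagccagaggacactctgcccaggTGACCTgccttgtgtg
Fam25c: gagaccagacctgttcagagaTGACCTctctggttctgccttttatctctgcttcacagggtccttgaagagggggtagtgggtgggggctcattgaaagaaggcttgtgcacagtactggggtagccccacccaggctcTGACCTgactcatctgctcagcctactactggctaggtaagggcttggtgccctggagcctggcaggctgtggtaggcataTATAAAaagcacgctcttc
Cep85: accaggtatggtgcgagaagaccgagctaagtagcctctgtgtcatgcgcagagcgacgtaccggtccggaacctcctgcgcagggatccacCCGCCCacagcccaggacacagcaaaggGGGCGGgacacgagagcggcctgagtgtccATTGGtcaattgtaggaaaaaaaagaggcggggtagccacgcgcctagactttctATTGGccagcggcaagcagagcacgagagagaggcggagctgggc

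Obp2a and Fam25c had a TATA box in the window and Cep85 had none. The first base of TATAAA lay 61 bases before the RefSeq start of Obp2a, whose GENCODE start is 31 bases further upstream, and 29 bases before that of Fam25c. The GENCODE start of Fam25c is 40 bases upstream of its RefSeq start, so this TATAAA lies inside the first exon of that annotation, whereas that of Obp2a lies before it. Of 32851 promoter windows, 12.4% held TATAAA at the length of the Obp2a window and 12.1% at that of Fam25c. AGGTCA stood 17 bases before the RefSeq start of Obp2a, and 229 and 110 bases before that of Fam25c, each time on the opposite strand. The match of Obp2a thus lies inside the first exon of the GENCODE annotation, and those of Fam25c lie before it. The motif was held by 14.0% and 13.5% of windows of those lengths. The Cep85 window instead had a pair of CCAAT boxes, 100 and 45 bases before the start, and a pair of GC boxes, 158 and 130 bases before it. Windows of its length held CCAAT in 33.8% and GGGCGG in 32.7% of cases. The GC content was 52.6% for Obp2a, 55% for Fam25c and 61.2% for Cep85. These matches describe the letters only.

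Obp2a was a rare transcript in wild-type liver and a modest one in knockout liver. Obp2a (ENSMUSG00000062061) has 744 exon bases in 7 exons of 1 annotated transcript and lies at chr2:25700043-25703326 on the plus strand (GENCODE M21, the same build as mm10). It had 98, 179 and 85 counts in knockout 1, 2 and 4, against 19, 8 and 16 counts in wild type 2, 4 and 11. As levels these were 6.49, 9.61 and 5.11 CPM in knockout, against 0.902, 0.427 and 0.743 CPM in wild type. A count of 3, the level that a count of 0 could still hide, was worth 0.139 to 0.199 CPM, so even the lowest wild-type library stood above it. The mean was 7.07 ± 2.30 CPM in knockout and 0.691 ± 0.24 CPM in wild type, which is 3.33 ± 0.37 (SE) as a log2 fold change. By size of the fold change it ranked 6 among the 1165 genes called as higher.

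The rise of Obp2a was not equal in the 3 knockout livers. Over the wild-type mean it was 13.9-fold in knockout 2, 9.39-fold in knockout 1 and 7.40-fold in knockout 4. The 95% counting interval of knockout 2, 8.26 to 11.1 CPM, lay above those of knockout 1 (5.27 to 7.91 CPM) and knockout 4 (4.09 to 6.32 CPM), and the last 2 overlapped. The highest knockout level was 1.88 times the lowest, and in wild type this ratio was 2.12 with counting intervals that all overlapped. The lowest knockout level was still 5.67 times the highest wild-type level. The variation between mice of 1 genotype that edgeR fitted to this gene was 27.6%, against 26.9% typical of genes at its abundance. For each gene edgeR draws the fitted value towards the typical one, so closeness of the 2 is partly built in.

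Cnbd2 (ENSMUSG00000038085) spans chr2:156312299-156375638 on the plus strand, with 3879 exon bases in 15 exon blocks and 6 annotated transcripts. It had 130, 144 and 99 counts in knockout 1, 2 and 4, against 21, 10 and 11 in wild type 2, 4 and 11. The levels were 8.61, 7.73 and 5.96 CPM in knockout, against 0.997, 0.533 and 0.511 CPM in wild type. All wild-type libraries lay above the floor of 3 counts and below every knockout library. The mean was 7.43 ± 1.35 CPM in knockout and 0.681 ± 0.27 CPM in wild type, with a log2 fold change of 3.43 and an SE of 0.34, rank 4 among the genes called as higher. This is the largest fold change of the 4 genes, though it differed from that of Obp2a by less than either SE.

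The 3 knockout levels of Cnbd2 were closer together than those of Obp2a. Its fold over the wild-type mean was 12.6 in knockout 1, 11.4 in knockout 2 and 8.75 in knockout 4. The counting intervals of 7.19 to 10.2, 6.52 to 9.10 and 4.84 to 7.25 CPM overlapped, which is no test of equal levels, and the level of knockout 4 lay below the intervals of the other 2. The highest knockout level was 1.45 times the lowest, and the lowest was 5.97 times the highest wild-type level. When scaled by library totals in place of TMM, knockout 2 came before knockout 1, and knockout 4 remained the lowest. The fitted variation between mice was 24.6%, against 26.7% for genes of like abundance.

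Fam25c (ENSMUSG00000043681) is the shortest of the 4, with 408 exon bases in 3 exons of 1 transcript at chr14:34351881-34355433 on the minus strand. It had 1710, 1388 and 1126 counts in knockout 1, 2 and 4, against 321, 278 and 444 counts in wild type 2, 4 and 11. The levels were 113, 74.5 and 67.7 CPM in knockout, against 15.2, 14.8 and 20.6 CPM in wild type. Knockout 1 stood out as the highest, and wild type 11 was the highest of its group. The mean was 85.2 ± 24.5 CPM in knockout and 16.9 ± 3.23 CPM in wild type, or 2.33 ± 0.24 (SE) as a log2 fold change, which put it at rank 53 by fold.

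In knockout 1 the rise of Fam25c was 6.70-fold over the wild-type mean, in knockout 2 it was 4.41-fold and in knockout 4 it was 4.01-fold. The counting interval of knockout 1, 107.9 to 118.7 CPM, lay above those of knockout 2 (70.7 to 78.6 CPM) and knockout 4 (63.8 to 71.8 CPM), which overlapped. With 1126 or more counts in each knockout library, the counting error cannot cover the gap between knockout 1 and the other 2. The highest knockout level was 1.67 times the lowest, against 1.39 times in wild type. When scaled by library totals, the levels were 94.4, 78.3 and 63.8 CPM in knockout 1, 2 and 4, with a ratio of 1.48. On that scale knockout 2 lay nearer to knockout 1 and further from knockout 4 than after TMM scaling. None of its 50-base words, the stretches of sequence that a short read could cover, occurred in another annotated gene.

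Cep85 (ENSMUSG00000037443) was the gene with the most counts and the smallest fold change. It lies at chr4:134129858-134187112 on the minus strand and has 5269 exon bases in 17 exon blocks of 9 annotated transcripts. It had 3338, 3162 and 3534 counts in knockout 1, 2 and 4, against 1301, 1060 and 1044 counts in wild type 2, 4 and 11. The levels were 221, 169.8 and 213 CPM in knockout, against 61.8, 56.5 and 48.5 CPM in wild type. The mean was 201 ± 27.5 CPM in knockout and 55.6 ± 6.70 CPM in wild type, or 1.85 ± 0.19 (SE) as a log2 fold change, rank 177 by fold. By p, which also reads the spread, it ranked 7 among all tested genes, beside Cnbd2 at 6, Fam25c at 9 and Obp2a at 14, and these ranks are part of the same comparison that chose the genes.

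Cep85 came closest to an equal rise. It was 3.98-fold in knockout 1, 3.05-fold in knockout 2 and 3.82-fold in knockout 4, and here knockout 4 was not the lowest. The counting interval of knockout 2, 163.9 to 175.8 CPM, lay below those of knockout 1 (213.6 to 228.6 CPM) and knockout 4 (205.7 to 219.8 CPM). The highest knockout level was 1.30 times the lowest, and 1.12 times when scaled by library totals, which also made knockout 4 the highest. In wild type the ratio was 1.27. The fitted variation between mice was 18.5%, against 21.2% for genes of its abundance.

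The order of the 3 knockout livers differed between the genes. After TMM scaling, knockout 1 was highest for Cnbd2, Fam25c and Cep85, and knockout 2 for Obp2a. With library totals, knockout 2 was highest for Cnbd2 and knockout 4 for Cep85. Knockout 4, the library with the smallest mitochondrial share of the 3, was lowest for Obp2a, Cnbd2 and Fam25c, and its part in the result was not tested. Knockout 4 alone against the 3 wild-type livers gave log2 fold changes of 2.87 for Obp2a and 3.11 for Cnbd2, against 3.33 and 3.43 with all 3 knockout livers. Removing the mitochondrial genes before scaling left the order of the knockout libraries as it was for each gene. That setting lowered the scaled sizes of the 3 knockout libraries by almost the same proportion, so it could hardly change their order.

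**Figure D2:**
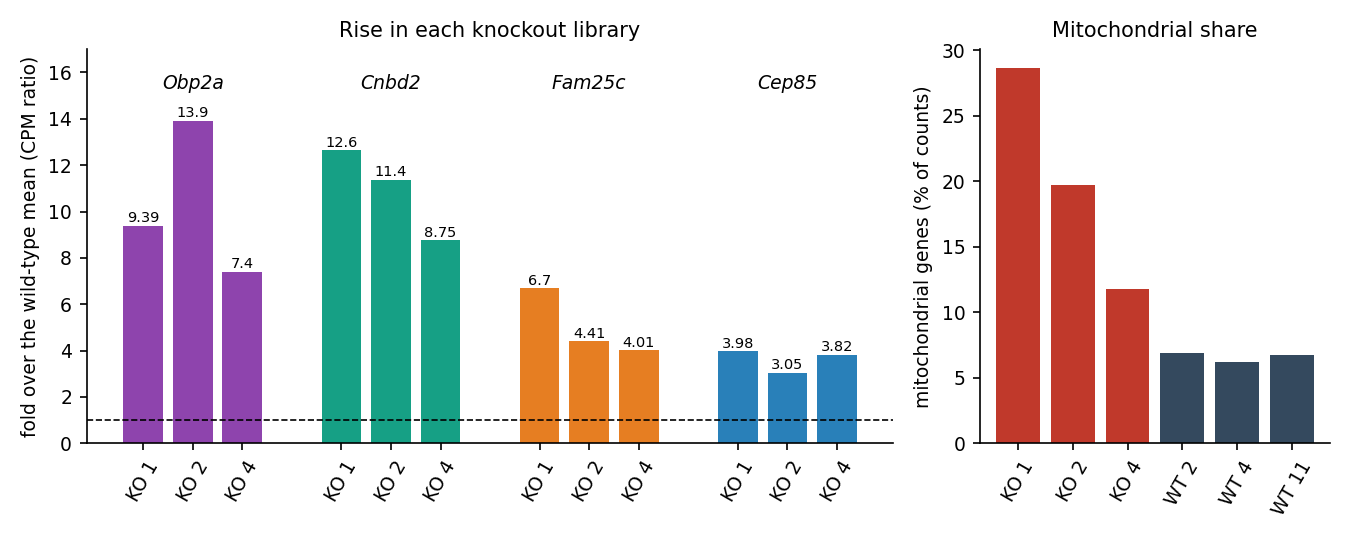
Left, level of Obp2a, Cnbd2, Fam25c and Cep85 in each knockout liver divided by the mean of the 3 wild-type livers, with a dashed line at 1. Right, share of the counts of each library that fell on mitochondrial genes, knockout in red and wild type in blue. The folds run from 3.05 for Cep85 in knockout 2 to 13.9 for Obp2a in knockout 2, and knockout 4 has both the lowest fold for 3 of the 4 genes and the smallest mitochondrial share among the knockouts.

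Per length of the annotated exons, Fam25c was the most abundant of the 4 and Cnbd2 the least, in both genotypes. On this scale, CPM per kilobase, Fam25c averaged 208.7 ± 60.1 in knockout and 41.4 ± 7.92 in wild type. Cep85 averaged 38.2 ± 5.22 in knockout and 10.6 ± 1.27 in wild type. Obp2a averaged 9.50 ± 3.10 in knockout and 0.928 ± 0.33 in wild type. Cnbd2 averaged 1.92 ± 0.35 in knockout and 0.175 ± 0.071 in wild type. Within each genotype, the libraries of 1 gene did not overlap those of the next in this order. Among 13295 tested genes with an annotated length, the share with a lower level than Fam25c was 98.0% in knockout and 92.1% in wild type. For Cep85 it was 91.7% in knockout and 78.5% in wild type. For Obp2a it was 77.4% in knockout and 28.7% in wild type, and for Cnbd2 44.2% in knockout and 5.69% in wild type. Obp2a thus lay in the lower part of the tested genes in wild-type liver and in the upper part in knockout liver, while Cnbd2 stayed below the middle in both. Both genes passed the filter on low counts through their knockout levels. Their low places in wild type and their moves between the genotypes therefore follow in part from the filter and from the choice of the genes.

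**Figure D3:**
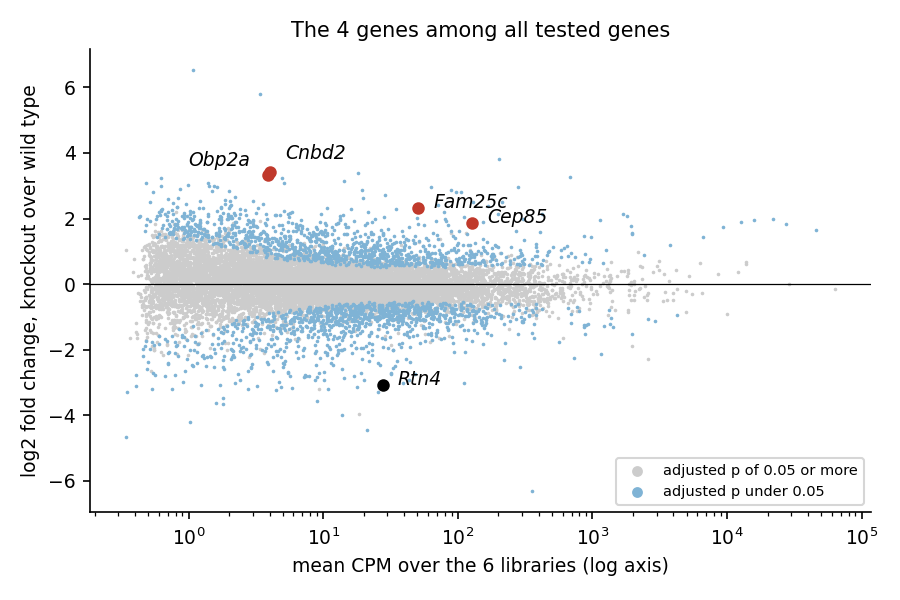
Log2 fold change of knockout over wild type (vertical axis) against mean CPM over the 6 libraries (log axis) for 13304 tested genes, with genes at an adjusted p under 0.05 in light blue, Obp2a, Cnbd2, Fam25c and Cep85 in red and Rtn4 in black. Cnbd2 at 3.43 and Obp2a at 3.33 are among the larger rises of genes at low level, Fam25c at 2.33 and Cep85 at 1.85 lie further to the right with other called genes above them, and Rtn4 lies at −3.08.

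Cnbd2 and Cep85 share a piece of exon. The last exon of the transcript Cnbd2-202, 577 bases at chr2:156356526-156357102, of which 386 bases are coding, and that of Cep85-207, 646 bases of a non-coding transcript at chr4:134164112-134164757, could be aligned over 591 bases with 92.0% identity. The longest identical run was 338 bases. In 50-base words the shared stretch makes up 10.02% of Cnbd2 and 7.42% of Cep85, and no word of it was found in the other transcripts of Cnbd2. How reads that match 2 genes were counted is not given in the sources used here, so the counts of both genes are uncertain to that extent. In all, 25.2% of the words of Cnbd2 and 8.26% of those of Cep85 occur in another annotated gene.

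Counts of Cnbd2 did not keep a fixed proportion to those of Cep85. Per 100 Cep85 counts there were 3.89, 4.55 and 2.80 Cnbd2 counts in knockout 1, 2 and 4, against 1.61, 0.943 and 1.05 in wild type 2, 4 and 11. Each knockout ratio lay above each wild-type ratio, though the 95% interval of knockout 4, 2.27 to 3.42, overlapped that of wild type 2, 0.996 to 2.48. The ratio is made of the values that chose both genes and is a description. The share of the shared exon in these counts was not tested.

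**Figure D4:**
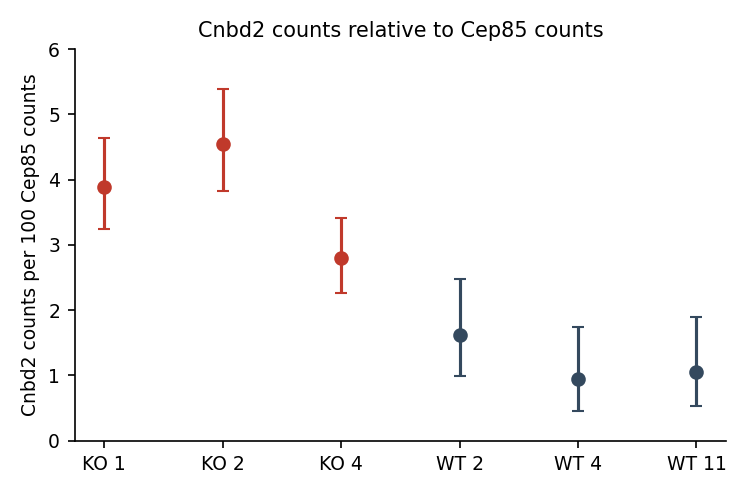
Counts of Cnbd2 per 100 counts of Cep85 in each library, knockout in red and wild type in blue, with 95% intervals that cover counting error only. The knockout libraries lie at 2.80 to 4.55 and the wild-type libraries at 0.943 to 1.61.

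Another 12 annotated genes share words with the same Cnbd2 exon, a set found after the values of Cnbd2 were known, and their values had both signs. Those with enough counts had log2 fold changes of 0.85 with an SE of 0.37 for Gm43305, 0.88 with an SE of 0.29 for Apobec3, −0.80 with an SE of 0.41 for AI506816 and −0.37 with an SE of 0.23 for Chd9. Miga1 was at 0.15 and Gm10524 at −0.08. Apobec3 encodes a cytidine deaminase that restricts retroviruses and Chd9 a chromatin remodeller.

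Cnbd2 also overlaps other genes on the opposite strand. Scand1, a gene of a small SCAN domain protein, shares 307 exon bases with it and had 888, 783 and 725 counts in knockout 1, 2 and 4, against 513, 382 and 612 in wild type 2, 4 and 11. Scand1 rose, at 48.2 ± 9.25 CPM in knockout and 24.4 ± 4.03 CPM in wild type (log2 fold change 0.98, SE 0.20, edgeR adjusted p = 0.0122), a call that was lost without wild type 2 or wild type 4. Gm14253, a processed pseudogene on the opposite strand within an intron, fell, with 6, 10 and 10 counts in knockout and 64, 43 and 42 in wild type (−2.22, SE 0.39, edgeR adjusted p = 0.00793). Gm14252, an antisense gene that shares 526 exon bases with Cnbd2, had 0 counts in each library. Whether the counting used the strand is not given in the sources used here, and without strand, reads within the shared exon bases, 307 of the 3879 of Cnbd2 for Scand1, cannot be told apart by gene.

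Obp2a shares 11.7% of its words with Obp2b, its nearest relative by sequence, which had 0 counts in all 6 libraries. The 2 transcripts could be aligned over 591 bases with 76.5% identity, and the longest identical run was 130 bases. Called genes of the lipocalin family went both ways. The list of 26 other lipocalin genes leaves out the major urinary proteins, also lipocalins, as near-identical copies, so its counts are not those of the whole family. Of the 26, 22 were in the table, 9 of them had 0 counts in all libraries, and 9 were tested. Among the tested ones 3 rose and 1 fell, where 8.76% and 8.29% of all tested genes did so, and their median log2 fold change was 0.47, against 0.01 over all tested genes.

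Ptgds, which makes prostaglandin D2 and carries hydrophobic ligands, had the largest called rise among the tested lipocalins of that list. It had 5.10, 1.56 and 3.19 CPM in knockout 1, 2 and 4, against 1.52, 0.640 and 0.604 CPM in wild type 2, 4 and 11 (log2 fold change 1.81, SE 0.51, edgeR adjusted p = 0.037), with knockout 2 barely above wild type 2. The acute phase lipocalins Orm1 and Orm3 rose less. Orm1 averaged 1214 ± 259 CPM in knockout and 720 ± 40.4 CPM in wild type (0.75, SE 0.21, edgeR adjusted p = 0.0348), and it shares 20.4% of its words with other genes. Orm3 averaged 6.20 ± 0.93 CPM in knockout and 3.32 ± 0.24 CPM in wild type (0.90, SE 0.24, edgeR adjusted p = 0.0299). Apom, the carrier of sphingosine 1-phosphate on lipoproteins, fell. It had 41.3, 34.6 and 101 CPM in knockout 1, 2 and 4, against 198, 217 and 179 CPM in wild type 2, 4 and 11 (−1.74, SE 0.35, edgeR adjusted p = 0.0122), so knockout 4 was nearer to wild type than the other 2. Lcn2, an iron-siderophore carrier of neutrophils and stressed liver, had 2.98, 6.39 and 2.05 CPM in knockout and 0.855, 1.87 and 1.81 CPM in wild type (1.34, SE 0.47, edgeR adjusted p = 0.0714). The number of lipocalins called, 4, was 0 without knockout 1, 7 without knockout 4, 2 without wild type 2 or wild type 11, and 1 without wild type 4. With library totals it was 2, with Orm1 and Orm3 lost. Of the single calls, Apom was lost without knockout 1, and Ptgds without knockout 1, wild type 4 or wild type 11. Orm1 was lost without knockout 1 or any wild-type library, and Orm3 held its call when knockout 4 was left out but not when any other library was.

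Genes of other proteins with a cyclic nucleotide-binding domain were mostly without a call. Of 29, 9 were tested, 2 rose and 0 fell, beside 17% of all tested genes called, and the median was 0.17. Rapgef4, which encodes the cAMP-activated exchange factor EPAC2, rose, with 268, 217 and 218 CPM in knockout 1, 2 and 4 and 144, 111 and 119.7 CPM in wild type 2, 4 and 11 (log2 fold change 0.91, SE 0.19, edgeR adjusted p = 0.0122). Pnpla6, a lysophospholipase of the endoplasmic reticulum, rose to 28.3 ± 6.95 CPM in knockout, against 17.5 ± 1.64 CPM in wild type (0.69, SE 0.21, edgeR adjusted p = 0.045). Cnbd1, the gene named alike, had 0 counts in all 6 libraries. The regulatory subunit of protein kinase A Prkar1a, at 106 ± 13.0 CPM in knockout and 126 ± 5.20 CPM in wild type, had a log2 value of −0.24 ± 0.17 (SE). The number called was 0 without wild type 4 and 1 without knockout 1, knockout 2 or wild type 2. Rapgef4 lost its call without wild type 4, and Pnpla6 kept its call when knockout 4 was left out but not when any other library was. Pnpla6 also lost it with library totals.

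No other centrosome or centriole gene passed the test along with Cep85. Of 31 such genes 27 were tested, with a median log2 fold change of 0.10 and a range of −0.74 to 0.72. edgeR called 0, with 6 at an unadjusted p under 0.05, of which 2 were higher and 4 lower, where 34% of all tested genes were at that level. DESeq2 called 1, Pcnt, limma-voom called 0, and 3 were called by edgeR without knockout 4 and 1 without wild type 11. Cep85l, the paralogue of Cep85, had 43.6, 22.7 and 25.6 CPM in knockout 1, 2 and 4, against 33.3, 29.7 and 23.2 CPM in wild type 2, 4 and 11 (0.09, SE 0.26, edgeR adjusted p = 0.833). Its groups overlapped, while those of Cep85, a gene chosen for its rise, did not. Over all tested genes, 19.7% had every knockout level above every wild-type level. The genes of the 2 proteins that bind CEP85 in human cells had few counts in liver. Nek2 had 0, 0 and 1 counts in knockout and 0, 2 and 0 in wild type, and Stil had 1, 5 and 5 in knockout and 1, 6 and 1 in wild type. Plk4, the kinase that starts centriole duplication, had 0, 2 and 0 counts in knockout and 1, 3 and 3 in wild type.

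**Figure D5:**
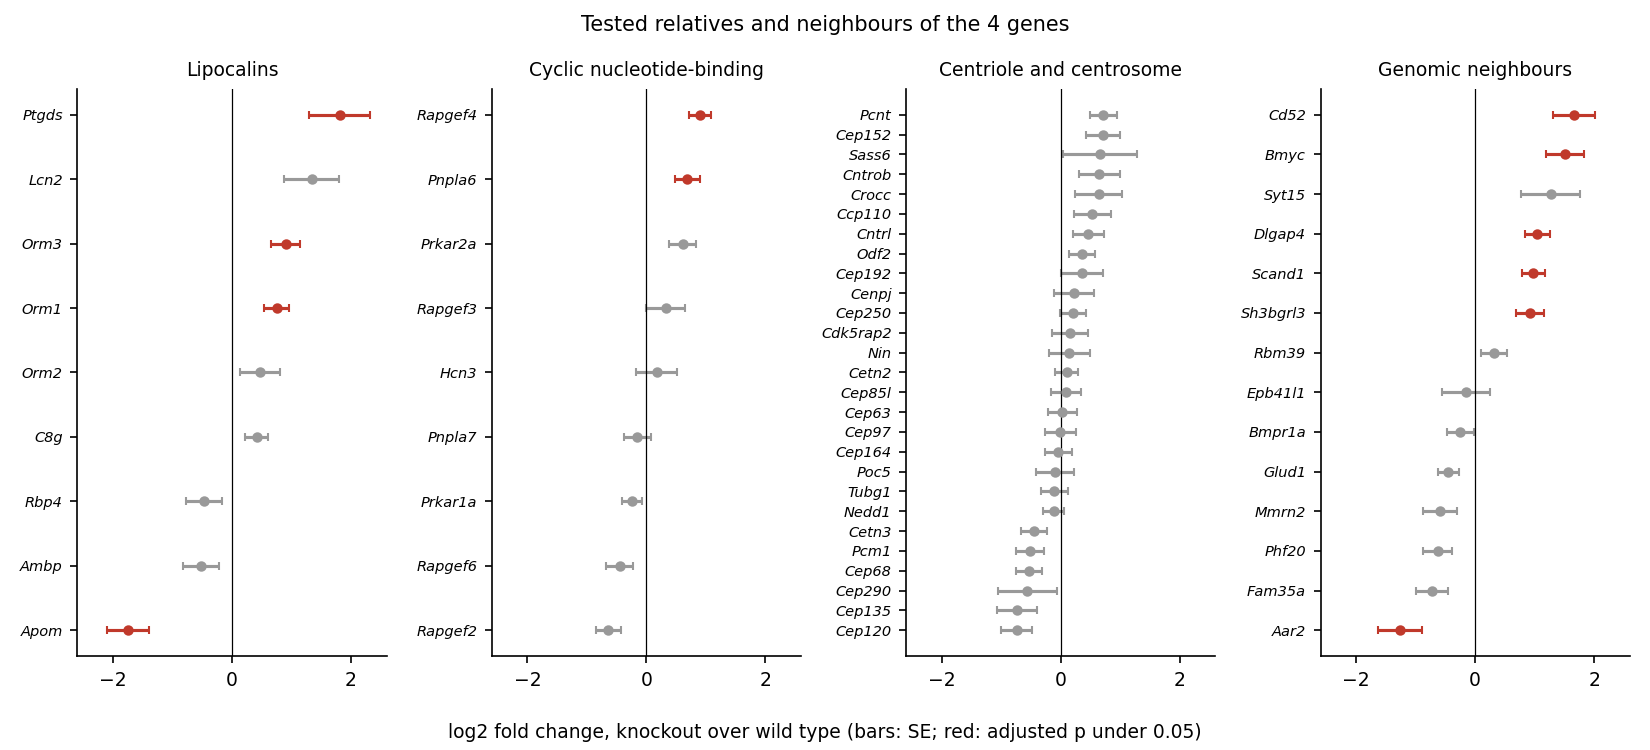
Log2 fold change of knockout over wild type, with its SE, for the tested lipocalins (9, major urinary proteins left out), cyclic nucleotide-binding genes (9), centriole and centrosome genes (27) and genomic neighbours (14), sorted by value. Red points have an edgeR adjusted p under 0.05. The called genes number 4, 2, 0 and 6 in the panels from left to right.

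The neighbourhood of each gene in the genome was looked at next, with the 3 nearest protein-coding genes on either side. Of these 24 neighbours 14 were tested, 5 rose and 1 fell, beside 8.76% and 8.29% of all tested genes, and their median log2 fold change was 0.08, against 0.01 over all tested genes. The calls were 1 without wild type 2 and 2 without wild type 4. Obp2a stands in a row of lipocalin genes, and its 5 lipocalin neighbours had too few counts to test. Its remaining neighbour Bmyc, a relative of Myc that begins 3413 bases beyond it, rose, with 4.24, 4.62 and 3.91 CPM in knockout 1, 2 and 4 and 1.23, 1.17 and 2.04 CPM in wild type 2, 4 and 11 (1.51, SE 0.32, edgeR adjusted p = 0.013). Bmyc shares 60.9% of its words with another annotated gene, so its level is uncertain, and it lost its call without wild type 2 or wild type 4.

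Beside Cnbd2, neighbours went both ways. Scand1 rose as given above, and Dlgap4, a scaffold protein gene, rose to 27.3 ± 7.17 CPM in knockout, against 13.2 ± 0.64 CPM in wild type (1.04, SE 0.21, edgeR adjusted p = 0.0122). Aar2, which takes part in the assembly of the spliceosome, fell, with 2.32, 5.64 and 8.84 CPM in knockout 1, 2 and 4 and 14.6, 14.1 and 11.9 CPM in wild type 2, 4 and 11 (−1.27, SE 0.37, edgeR adjusted p = 0.0408). Aar2 kept this call when knockout 4 was left out but not when any other library was, and Dlgap4 lost its call without wild type 2. Epb41l1, the nearest gene downstream of Cnbd2, was at −0.16 with an SE of 0.40. None of the 5 tested neighbours of Fam25c was called. The nearest on one side, Glud1, which encodes glutamate dehydrogenase, lies 6616 bases away and had 714 ± 48.8 CPM in knockout and 976 ± 80.0 CPM in wild type (−0.45, SE 0.18, edgeR adjusted p = 0.106). The nearest tested one on the other side, the endothelial gene Mmrn2, was at −0.59 ± 0.28 (SE, edgeR adjusted p = 0.166).

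Next to Cep85, both tested neighbours rose. Sh3bgrl3, a small thioredoxin-like protein gene 1069 bases away, had 13.6, 11.4 and 9.21 CPM in knockout 1, 2 and 4, against 4.80, 5.81 and 7.48 CPM in wild type 2, 4 and 11 (0.92, SE 0.24, edgeR adjusted p = 0.0286). The call of Sh3bgrl3 was lost when knockout 1, knockout 2, wild type 2 or wild type 4 was left out, and with library totals. Cd52, a surface glycoprotein gene of lymphocytes, had 13.3, 24.9 and 8.72 CPM in knockout 1, 2 and 4, against 3.94, 5.01 and 5.85 CPM in wild type 2, 4 and 11 (1.66, SE 0.35, edgeR adjusted p = 0.0136). It kept its call in 6 of 6 fits that left out 1 library. The lymphocyte marker sums given above moved the same way as Cd52, and their part in its rise was not tested. On the other side, Gm7534, Catsper4 and Cnksr1 had too few counts to test.

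Genes with the most similar course over the 6 libraries were named by the smallest root mean square difference of log2(CPM + 0.5), each centred on its wild-type mean, among 11177 protein-coding genes with at least 1 CPM in knockout. With this 0.5 CPM added, Obp2a and Cnbd2 were each other's nearest, with a difference of 0.26, and Fam25c was the next for both, at 0.46. The third was the ribosomal protein gene Rpl21 for Obp2a at 0.47 and the mitochondrial gene mt-Atp8 for Cnbd2 at 0.47. Fam25c was nearest to Etfb, a subunit of the electron transfer flavoprotein, at 0.25, to the major urinary protein gene Mup11 at 0.25 and to the galectin gene Lgals4 at 0.29. Etfb averaged 178 ± 68.1 CPM in knockout and 43.0 ± 8.70 CPM in wild type. Rpl21, Mup11 and mt-Atp8 have near-identical copies elsewhere in the genome, so their levels are uncertain. The wild-type levels of Obp2a and Cnbd2 were near the added 0.5 CPM, so their differences from other genes depend on that amount. With 2 CPM added, the log2 change in knockout 1 was 1.66 in place of 2.57 for Obp2a and 1.99 in place of 2.97 for Cnbd2. For Cep85 it was 1.96 in place of 1.99.

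With the same 0.5 CPM added, Cep85 had other companions. Its nearest gene was Hes1, a transcriptional repressor that Notch induces, at 0.16, with 20.3 ± 1.94 CPM in knockout and 5.58 ± 0.79 CPM in wild type. Efcc1, at 0.20, averaged 1.78 ± 0.42 CPM in knockout and 0.216 ± 0.20 CPM in wild type, and the zinc transporter gene Slc39a2, at 0.26, averaged 2.79 ± 0.48 CPM in knockout and 0.646 ± 0.19 CPM in wild type. Cep85 differed by 0.44 from Fam25c, by 0.69 from Cnbd2 and by 0.70 from Obp2a. The differences from Cnbd2 and Obp2a depend on the amount of CPM added, as given above. Those from Efcc1 and Slc39a2 do so too, since their wild-type levels were below or near the added 0.5 CPM. All these likenesses rest on the same 6 libraries and on genes of large change, and they are descriptions with no test.

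The tissues in which Obp2a-like genes and Cnbd2 are best known gave hardly a count in these livers. Of 7 sperm markers, 2 (Odf1 and Akap4) had 0 counts in all libraries, and the sum of the 7 was 0 to 0.199 CPM in knockout and 0 to 0.418 CPM in wild type, below the level of Cnbd2 in either genotype. Of 7 nasal and lacrimal gland markers, 5 (Bpifa1, Obp1a, Obp1b, Lcn3 and Lcn11) had 0 counts, and the sum was 0.0537 to 0.530 CPM in knockout and 0 to 0.107 CPM in wild type. Obp2a at 5.11 to 9.61 CPM in knockout was well above that sum.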

How the data were processed

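RNA sequencing of 6 mouse livers was analysed, 3 Nogo-/- and 3 wild type. Per the labels' protocols, RNA was purified on Qiagen RNeasy columns and turned into libraries with a SMARTer mRNA kit. The authors deposited raw counts per gene as whole numbers, 1 column per mouse. Per the submitters' processing notes, the build was mm10. Not given in the sources used here are the aligner, the counter, its annotation, the use of strand and what was done with reads that match more than 1 gene.

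Counts were fitted in R 4.3.3 with edgeR 4.0.16 (TMM, filterByExpr, quasi-likelihood F test, two-sided, Benjamini-Hochberg over 13304 genes). A gene is called, and said to have risen or fallen, at an adjusted p under 0.05. The SE was derived from the fold change and the F statistic. DESeq2 1.42.0, limma-voom 3.58.1, other scalings, no low-count filter, each library left out, knockout 4 alone and a replicate block were alternatives. On simulated counts the scripts were tested for recovery of known changes. GENCODE M21 matched 54079 of the 54232 identifiers, and gave positions, lengths and 50-base words. Exons were aligned with blastn 2.17.0, and promoters came from RefSeq.

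The 4 genes and the lists of relatives, neighbours and markers were chosen with earlier results of these data known. The text names every called relative and neighbour, Lcn2, Obp2b, Cep85l, Cnbd1, Nek2, Stil, Plk4, the nearest tested neighbours, and the 3 genes of most like pattern per gene. Pcnt, Prkar1a, Gm14252, Gm14253, the genes that share the Cnbd2 exon and the neighbours and markers without a call were named after their values were seen. Libraries of 1 genotype differed beyond sampling noise (chi-square per degree of freedom 21.0 to 170.6), so each counts as a sample. The p-values therefore speak of the spread between these samples, which may be partly technical. Poisson intervals (95%) and floors of 3 counts cover counting error only. The labels do not say that equal numbers mark a litter.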

Additional observations from a re-analysis of the deposited data

How the results depend on the processing

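The log2 fold changes of the 4 genes were recomputed in 14 other settings. Of the 56 values 52 moved by less than 1 SD between replicates, 4 moved further and 0 changed sign. Most settings refitted the same libraries or left out 1 of them, which seldom moves a mean by 1 SD. The tally was therefore largely set in advance. Knockout 4 alone against wild type gave 2.87 for Obp2a and 3.11 for Cnbd2, with the spread taken from wild type only and knockout assumed to vary alike. Library totals, which shifted the median of all genes by −0.16, gave 1.66 for Cep85. Leaving out 1 library gave 3.24 to 3.80 for Cnbd2, the highest without wild type 2. The causes were not tested. Counts of called genes moved more. Over all genes the 2268 calls became 25 with knockout 4 alone, and 630 to 4046 when 1 library was left out. The 4 lipocalin calls became 2 with library totals, 0 with knockout 4 alone, 2 with the replicate block and 0 to 7 with 1 library left out. The 2 calls of cyclic nucleotide-binding genes became 0 with knockout 4 alone, 0 with the replicate block and 0 to 3 with 1 library left out. The 0 centriole calls became 1 with library totals, with no low-count filter, with DESeq2 and with the replicate block, and 0 to 3 with 1 library left out. The 6 neighbour calls became 0 with knockout 4 alone and 1 to 9 with 1 library left out. The 12 called relatives and neighbours lost their calls with knockout 4 alone, and 0 changed sign in any setting. With the replicate number as a block, for the numbers 2 and 4 that both genotypes share, the 4 genes had log2 fold changes of 3.47, 3.17, 2.24 and 1.68 (Obp2a, Cnbd2, Fam25c and Cep85), and deviations of same-numbered libraries correlated at −0.05 and 0.06, so the numbers gave no sign of pairing. Depth limits Obp2a and Cnbd2 most, with 8 to 21 counts per wild-type library. With 0.1 or 2 CPM added in place of 0.5, their log2 changes in each knockout library moved by more than the SD over the knockout libraries. Those of Fam25c and Cep85 moved by less.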
